A study of Danio rerio with 24 samples.

Results

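The data described here are RNA-seq libraries of the whole kidney marrow of adult zebrafish whose heart muscle cells had been ablated, set against libraries of uninjured fish. They were chosen by their labels and are 4 of the 24 samples of the series, or 4 of the 14 that come with a table of read counts. The ablated group and the uninjured group hold 2 libraries each. All fish were male, of the EK strain and labelled as wild type, 4 to 12 months old. Cardiomyocyte ablation was set off by keeping fish for 17 h in water with 0.5 to 0.7 µM tamoxifen, and tissue was taken at day 7. The protocol text is the same for both groups. It does not say whether uninjured fish went through the bath, which transgene or promoter directs the ablation, or whether several fish were pooled. The extraction protocol speaks of whole kidneys frozen at once, so the libraries hold renal tissue as well as marrow. Nothing in the labels says that the 2 libraries of a group come from separate animals, so p-values measure only the spread between these libraries, which may be technical.

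The kidney of a teleost fish doubles as its bone marrow. Blood stem cells, erythroid, myeloid and lymphoid precursors and a sinusoidal vasculature fill the spaces between the nephrons, and the interrenal and chromaffin cells that correspond to the adrenal gland lie in the anterior part. Signals from a distant wound can reach it through the circulation, and the study's title places the work among long-range responses to tissue injury. The comparison asks which genes of the marrow differ when the heart, and not the kidney, has been injured.

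Each library held 16045360 to 20469655 reads assigned to a gene. Reads outside any gene took 37.4% to 41.5% of a library, and ambiguous reads 0.969% to 1.23%. The most abundant entry, zgc:158463, annotated as an rRNA in RefSeq (GRCz12tu), took 12.0% and 6.09% of the gene reads in the ablated libraries, against 15.2% and 8.46% in the uninjured ones. Its share was higher in replicate 1 than in replicate 2 of both groups. Levels below are CPM, reads scaled to a common depth, on library sizes scaled by edgeR's trimmed mean of M values (TMM), and paired values are replicate 1 and replicate 2 in that order. Fold changes are log2 of ablated over uninjured with their standard error (SE), n = 2 libraries per group.

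Of 14781 genes, 12160 had enough reads to be tested. At an adjusted p of 0.05 edgeR called 0% of them in either direction, with a smallest adjusted p of 0.0740, and limma-voom likewise called 0% in either direction. At an unadjusted p under 0.05, edgeR had 1492 genes higher after ablation (12.3% of those tested) and 892 lower (7.34%). DESeq2, run as an alternative, called 429 genes higher (4.18% of the 10274 to which it gave an adjusted p) and 178 lower (1.73%). Libraries of the groups did not overlap in 3374 genes that stood higher (27.7%) and 2960 that stood lower (24.3%). With 2 libraries per group, libraries often fail to overlap even where groups do not differ, so these counts are not calls. The counts at an unadjusted p under 0.05 were 842 higher and 563 lower without ablated replicate 1, and 942 higher and 573 lower without ablated replicate 2. The gene-wise values that follow describe 4 libraries. A gene is said below to stand higher or lower, not to have risen or fallen, because none passed edgeR's adjusted threshold.

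The spread between libraries of a group was smaller than that between groups in every pair. Over the 9551 genes with a mean of at least 5 CPM, the median absolute log2 difference was 0.146 between the 2 ablated libraries and 0.176 between the 2 uninjured ones, against 0.213 to 0.276 in the 4 pairs across groups. More than 2-fold apart were 1.70% of these genes between the ablated libraries and 1.87% between the uninjured ones, against 2.64% to 6.36% across groups. Spearman correlations of levels across these genes, which are not independent replicates, were 0.981 within the ablated group, 0.976 within the uninjured group and 0.950 to 0.969 across groups. The 2 libraries farthest apart were ablated replicate 1 and uninjured replicate 2.

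**Figure D1:**
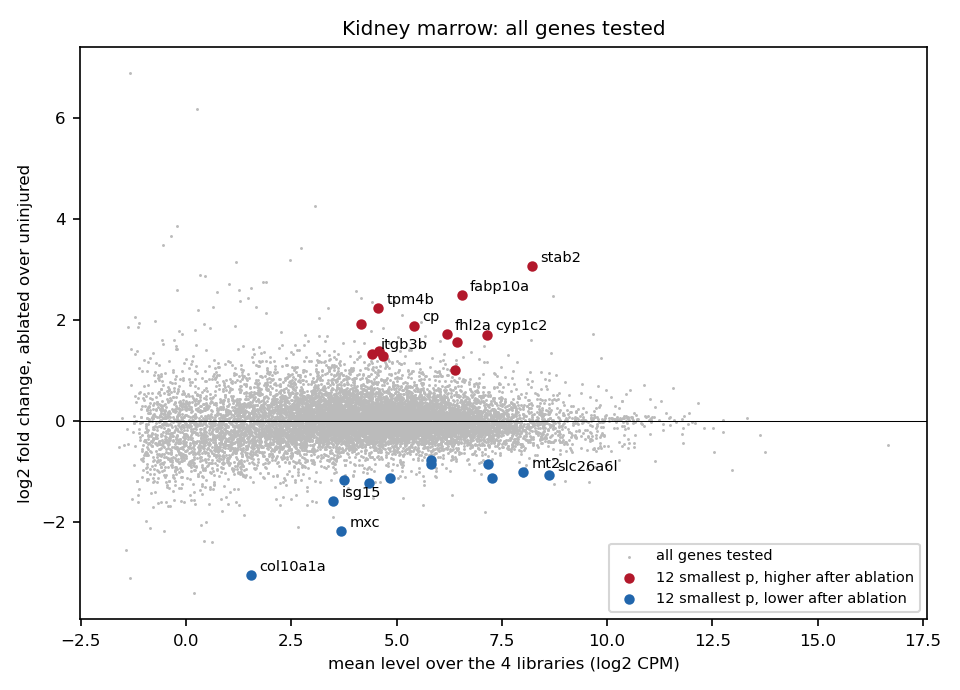
Each point is 1 of the 12160 genes tested, with its mean level over the 4 libraries in log2 CPM on the horizontal axis and its log2 fold change of ablated over uninjured marrow on the vertical axis. Red and blue points are the 12 genes per direction with the smallest p, which reach 3.07 for stab2 above and -3.04 for col10a1a below, while most genes lie near 0.

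The genes with the smallest p in the higher direction were led by fhl2a, which encodes a LIM-domain scaffold protein. It stood at 118 and 106 CPM in ablated marrow, against 34.2 and 33.3 CPM in uninjured marrow (log2 fold change 1.73, SE 0.11). fabp10a, the fatty acid-binding protein of fish liver, stood at 153 and 164 CPM in ablated marrow, against 24.0 and 32.3 CPM in uninjured marrow (2.49, SE 0.17). The ceruloplasmin gene cp, whose product carries copper in plasma and oxidises iron, stood at 67.5 and 66.1 CPM in ablated marrow, against 20.1 and 15.96 CPM in uninjured marrow (1.89, SE 0.15). In all 3 genes the 2 ablated libraries lay close to each other and well above both uninjured ones. That the groups did not overlap was required by the choice of genes. stab2, a scavenger receptor for hyaluronan on sinusoidal endothelium, stood at 677 and 383 CPM in ablated marrow, against 65.5 and 60.7 CPM in uninjured marrow (3.07, SE 0.30). Here the ablated libraries differed from each other, and the lower of them was still several times as high as either uninjured one.

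The rest of the 12 had functions of several kinds. Matrix and protease genes were htra3a (1.93, SE 0.16), a secreted serine protease of the HtrA family, and pcolcea (1.57, SE 0.16), an enhancer of procollagen processing. Cytoskeletal and adhesion genes were the tropomyosin gene tpm4b (2.23, SE 0.21) and itgb3b (1.33, SE 0.13), the beta3 integrin of thrombocytes. The interleukin 13 decoy receptor gene il13ra2 stood at 33.4 and 35.8 CPM in ablated marrow, against 12.3 and 14.0 CPM in uninjured marrow (1.39, SE 0.13). cyp1c2, a cytochrome P450 of the CYP1 family, stood at 246 and 188 CPM in ablated marrow, against 61.9 and 70.7 CPM in uninjured marrow (1.71, SE 0.17). The last were sae1 (1.29, SE 0.12), a subunit of the enzyme that activates SUMO, and the annexin gene anxa13 (1.01, SE 0.10). All 12 had an edgeR adjusted p of 0.0740, and DESeq2 called all 12.

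In the lower direction the smallest p belonged to mxc, an Mx GTPase that interferon induces. It stood at 5.31 and 4.06 CPM in ablated marrow, against 21.95 and 19.96 CPM in uninjured marrow (log2 fold change -2.17, SE 0.19). A second interferon-induced gene, isg15, encodes a ubiquitin-like modifier and stood at 4.88 and 6.47 CPM in ablated marrow, against 15.0 and 18.9 CPM in uninjured marrow (-1.57, SE 0.21). The anion exchanger gene slc26a6l stood at 256 and 250.2 CPM in ablated marrow, against 558 and 505 CPM in uninjured marrow (-1.07, SE 0.11). In each of them both ablated libraries lay below both uninjured ones, which the choice of genes required, with a gap wider than either pair. sat1a.1, an acetyltransferase that starts the breakdown of polyamines, stood at 102 and 91.8 CPM in ablated marrow, against 222 and 197 CPM in uninjured marrow (-1.12, SE 0.12). The metallothionein gene mt2, a buffer for zinc and copper, stood at 176 and 168 CPM in ablated marrow, against 320.1 and 369 CPM in uninjured marrow (-1.01, SE 0.12). The aryl hydrocarbon receptor gene ahr1a stood at 13.003 and 11.2 CPM in ablated marrow, against 28.7 and 28.0 CPM in uninjured marrow (-1.23, SE 0.13). In these 3 genes too both ablated libraries lay below both uninjured ones, as the choice of all 12 required. The other 6 were the alcohol dehydrogenase gene adh8b (-0.86), the cell adhesion gene nadl1.2 (-1.12), c1qtnf1 (-1.16), the putative RNA helicase gene mov10b.1 (-0.77), pebp1 (-0.84) and the collagen X gene col10a1a (-3.04). Adjusted p by edgeR ran from 0.0740 to 0.0793 in these 12, of which DESeq2 called 11 and gave no adjusted p for col10a1a.

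**Figure D2:**
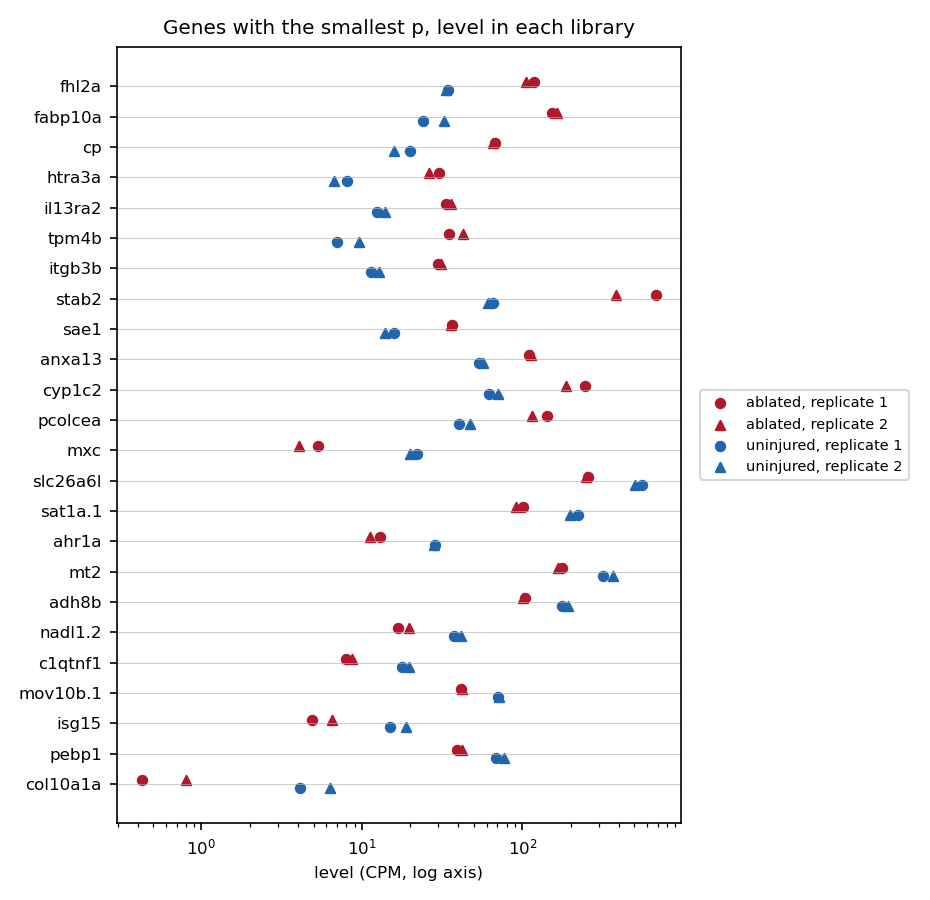
Level in CPM on a log axis of the 24 genes with the smallest p, the 12 higher ones above the 12 lower ones, with ablated libraries in red above uninjured libraries in blue and replicates as circles and triangles. In each gene the red and the blue points are apart, which the choice of genes required, and stab2 shows the widest gap between the 2 ablated libraries among the higher 12, at 677 and 383 CPM.

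Among genes with the largest fold changes were some that rested on 1 library. The angiotensinogen gene agt stood at 1.71 and 30.1 CPM in ablated marrow, against 0.751 and 0.920 CPM in uninjured marrow (4.26, SE 1.39), so its size came from ablated replicate 2. stc1l, related to stanniocalcin, the calcium-lowering hormone that fish make in glands attached to the kidney, stood at 993 and 433 CPM in ablated marrow, against 39.0 and 217 CPM in uninjured marrow (2.48, SE 0.86). Its groups did not overlap, which the choice of genes required, but its libraries varied several-fold within each. The embryonic alpha globin gene hbae1 stood at 16.2 and 8.26 CPM in ablated marrow, against 1.07 and 1.19 CPM in uninjured marrow (3.42, SE 0.41). esm1, an endothelial proteoglycan, stood at 21.98 and 34.6 CPM in ablated marrow, against 4.99 and 4.54 CPM in uninjured marrow (2.57, SE 0.26). hbae1 and esm1 had tight uninjured libraries and ablated libraries that were several times higher and farther apart. The fibrinogen beta gene fgb stood at 33.8 and 68.8 CPM in ablated marrow, against 10.4 and 9.52 CPM in uninjured marrow (2.37, SE 0.36). Without 1 library stc1l ran from 1.72, without uninjured replicate 1, to 4.19, without uninjured replicate 2, and agt was 1.03 without ablated replicate 2. In the lower direction the fast troponin gene tnni2b.2 stood at 2.75 and 2.12 CPM in ablated marrow, against 15.9 and 4.71 CPM in uninjured marrow (-2.09, SE 0.61). The muscle parvalbumin gene pvalb2 stood at 6.96 and 2.64 CPM in ablated marrow, against 26.4 and 8.93 CPM in uninjured marrow (-1.901, SE 0.67). In both, uninjured replicate 1 was far above the other libraries, and without it the fold changes were -0.95 for tnni2b.2 and -0.91 for pvalb2. The further genes were the antiviral gene rsad2 (-1.65), the itaconate-forming enzyme irg1 (-1.53), the phosphatase gene dusp2 (-1.52) and the renal amino acid transporter slc6a18 (-1.45). Adjusted p by edgeR in the genes chosen by fold ran from 0.0740 to 0.213 among the higher and from 0.0740 to 0.218 among the lower ones.

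Genes were then grouped in 34 lists by pathway, cell type and complex, of which 1133 distinct genes are in the files and 1060 were tested. These lists were chosen with earlier results of these data known, so their counts and medians are descriptions and carry no test. For each list the count of members above 0 and their median stand beside the same over all genes tested, where 5963 of 12160 lay above 0 with a median of -0.0088. Counts of members without overlap are to be read against 27.7% higher and 24.3% lower over all genes, counts at an unadjusted p under 0.05 against 12.3% and 7.34%, and counts called by DESeq2 against 4.18% and 1.73%. Because marrow was sequenced in bulk, fewer cells of a type and less RNA per cell cannot be told apart in any of these groups.

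**Figure D3:**
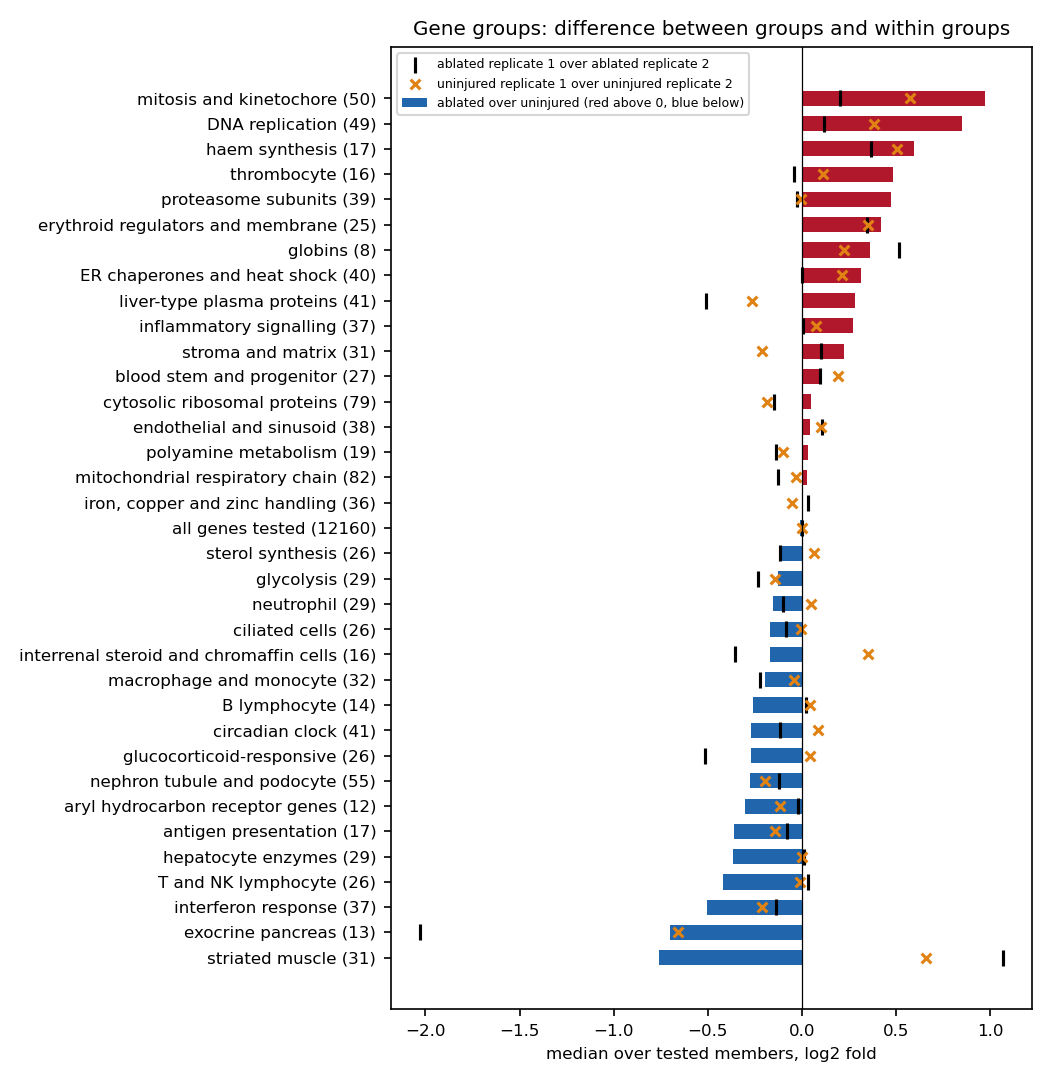
Median log2 fold of the tested members of each list, whose number stands in brackets, for ablated over uninjured marrow (bars) and between the 2 libraries of the ablated group (black ticks) and of the uninjured group (orange crosses). Mitosis (0.97) and DNA replication (0.85) have the highest bars, striated muscle (-0.76) and exocrine pancreas (-0.70) have the lowest bars and at least 1 larger within-group value, and proteasome subunits (0.47) have within-group values near 0.

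Genes of DNA replication and mitosis stood higher after ablation almost without exception. Of 49 replication genes 48 lay above 0 with a median of 0.85, the libraries did not overlap in 48, 43 had an unadjusted p under 0.05 and DESeq2 called 28, all higher. Of 50 genes of mitosis and the kinetochore 50 lay above 0 with a median of 0.97, with no overlap in 50, an unadjusted p under 0.05 in 45 and a DESeq2 call in 29. rrm2, a subunit of ribonucleotide reductase that supplies deoxynucleotides, stood at 188 and 183 CPM in ablated marrow, against 93.3 and 71.8 CPM in uninjured marrow (1.17, SE 0.15). The replication clamp gene pcna stood at 306 and 269 CPM in ablated marrow, against 164 and 125 CPM in uninjured marrow (0.99, SE 0.17). Both ablated libraries lay above both uninjured ones in the pair, and uninjured replicate 2 was the lowest library in each. Ligase lig1 (1.05), clamp loader rfc2 (1.01) and single-strand binding protein rpa2 (0.96) had the smallest p of the list, and the helicase genes mcm2 (0.78), mcm5 (1.01) and gins2 (0.80) had wider errors, SE 0.28, 0.34 and 0.26.

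In the mitotic list the proliferation marker mki67 stood at 353 and 292 CPM in ablated marrow, against 172 and 117 CPM in uninjured marrow (1.16, SE 0.21). cdk1, the kinase that drives entry into mitosis, stood at 71.4 and 55.3 CPM in ablated marrow, against 35.7 and 21.3 CPM in uninjured marrow (1.15, SE 0.28). Its cyclin gene ccnb1 stood at 62.0 and 42.0 CPM in ablated marrow, against 29.0 and 13.5 CPM in uninjured marrow (1.29, SE 0.40). The lowest value of all 3 was that of uninjured replicate 2, and the highest that of ablated replicate 1. The mitotic kinases aurkb (1.07) and plk1 (0.999), the condensin subunits ncapg (0.84) and ncapg2 (1.12), the centromeric histone cenpa (1.22) and the cohesion factor cdca5 (1.39) were higher as well. Within groups these lists also varied, by a median of 0.38 and 0.57 between the uninjured libraries for replication and mitosis and by 0.12 and 0.20 between the ablated ones. Leaving out 1 library at a time moved the 2 medians between 0.68 and 1.05 and between 0.68 and 1.25, the lowest in both without uninjured replicate 2 and the highest without uninjured replicate 1.

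Erythroid genes stood mostly higher, with wide spread among libraries of a group. Of 17 haem genes 13 lay above 0 with a median of 0.59, and DESeq2 called 7 higher. Fold changes of the list ran from -1.54 to 1.31. Libraries did not overlap in 8 higher (47.1%, against 27.7% of all genes) and 2 lower (11.8%, against 24.3%). An unadjusted p under 0.05 was found in 7 higher and 0 lower. urod, an enzyme midway through the haem pathway, stood at 215 and 179.6 CPM in ablated marrow, against 102 and 73.3 CPM in uninjured marrow (1.17, SE 0.19). The enzyme genes hmbsa (1.26, SE 0.25) and cpox (1.22, SE 0.25) of the same pathway and the mitochondrial porphyrin transport gene tmem14ca (0.89, SE 0.16) were higher too. alas2, the first and rate-limiting step in red cells, stood at 939 and 678 CPM in ablated marrow, against 937 and 635 CPM in uninjured marrow (0.039, SE 0.25). Its libraries paired by replicate number rather than by group, and its groups overlapped. Of 25 erythroid regulators and membrane genes 22 lay above 0 with a median of 0.42, with an unadjusted p under 0.05 in 9 higher and 1 lower. That median was 0.18 without ablated replicate 1 and 0.26 without uninjured replicate 2.

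The master erythroid factor gene gata1a stood at 97.7 and 72.9 CPM in ablated marrow, against 51.8 and 33.4 CPM in uninjured marrow (0.999, SE 0.26). tfr1a, the transferrin receptor through which red cell precursors take up iron, stood at 303 and 246 CPM in ablated marrow, against 175 and 130.5 CPM in uninjured marrow (0.85, SE 0.19). The zinc finger genes znfl2a (0.82, SE 0.11) and blf (0.65, SE 0.12) had the smallest p of the list. Wider errors were found for the anion exchanger of the red cell membrane slc4a1a (0.71, SE 0.28), its skeleton gene epb41b (0.52, SE 0.18) and the erythroid factor klf1 (0.52, SE 0.22). All 8 tested globin genes lay above 0 with a median of 0.36, 3 of them (37.5%) higher without overlap, against 27.7% of all genes. The adult alpha globin hbaa1 stood at 6816 and 3448 CPM in ablated marrow, against 4801 and 3200.5 CPM in uninjured marrow (0.36, SE 0.37), and the beta globin gene ba1l was at 0.15 (SE 0.12). The globin entries si:ch211-5k11.6 (0.66) and zgc:163057 (0.36) overlapped between the groups. The median of the globins was 0.10 without ablated replicate 1, 0.67 without ablated replicate 2 and 0.61 without uninjured replicate 1. That of the haem genes was 0.33 without ablated replicate 1, 0.28 without uninjured replicate 2 and 1.01 without uninjured replicate 1.

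Thrombocyte genes stood higher in 13 of 16, with a median of 0.49, 9 at an unadjusted p under 0.05 and 7 called by DESeq2. The integrin gene itga2b, which pairs with itgb3b to form the fibrinogen receptor, stood at 59.5 and 63.3 CPM in ablated marrow, against 26.0 and 36.9 CPM in uninjured marrow (0.96, SE 0.19). mpl, the receptor for thrombopoietin, stood at 27.7 and 33.5 CPM in ablated marrow, against 13.7 and 18.3 CPM in uninjured marrow (0.93, SE 0.19). The coagulation factor gene f5 stood at 78.4 and 95.6 CPM in ablated marrow, against 45.1 and 48.3 CPM in uninjured marrow (0.90, SE 0.14). In each of the 3 genes both ablated libraries lay above both uninjured ones. The fibrin-crosslinking factor f13a1b (0.63) and the platelet glycoprotein gene gp1bb (0.42) were higher by less. Summed over the list, levels were 1362 and 1412 CPM in ablated marrow, against 1153 and 1121 CPM in uninjured marrow.

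Blood stem and progenitor genes were divided, with 16 of 27 above 0 and a median of 0.089, which was -0.019 without ablated replicate 1, 0.18 without ablated replicate 2, 0.24 without uninjured replicate 1 and 0.00024 without uninjured replicate 2. angpt1, a ligand that maintains vessels and stem cell niches in mammals, stood at 8.06 and 6.28 CPM in ablated marrow, against 2.74 and 2.27 CPM in uninjured marrow (1.51, SE 0.24). The homeobox genes meis1b (0.57, SE 0.13) and meis1a (1.05, SE 0.32) were higher, while gata2a (-0.58, SE 0.16) was lower. myb, which marks definitive stem cells and progenitors, stood at 187 and 219 CPM in ablated marrow, against 143 and 177 CPM in uninjured marrow (0.34, SE 0.15), and gata2b was 0.23 (SE 0.20) with an error close to its difference. The defining gene runx1 had 0 reads in every library and could not be tested.

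Neutrophil genes lay lower in 20 of 29 tested and above 0 in 9. Their median was -0.16 (-0.013 without uninjured replicate 1 and -0.25 without uninjured replicate 2). Libraries did not overlap in 12 lower (41.4%, against 24.3% of all genes) and 3 higher (10.3%, against 27.7%). An unadjusted p under 0.05 was found in 1 higher and 3 lower. The granule genes lyz (-0.047, SE 0.15) and npsn (0.074, SE 0.14) and the receptor gene csf3r (-0.02, SE 0.094) overlapped between the groups. The myeloperoxidase gene mpx stood at 573 and 475 CPM in ablated marrow, against 753 and 516 CPM in uninjured marrow (-0.28, SE 0.21), also with overlap. The subunits of the phagocyte oxidase ncf1 and cybb were lower. ncf1 stood at 137 and 228 CPM in ablated marrow, against 292 and 400.0 CPM in uninjured marrow (-0.92, SE 0.29), and cybb was -0.34 (SE 0.11). The C/EBP gene of granulocytes cebp1 (-0.42) was lower too, and the proteoglycan gene srgn (0.28) was higher.

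Macrophage and monocyte genes had 9 of 32 above 0 and a median of -0.20, which was -0.074 without ablated replicate 1, -0.33 without ablated replicate 2 and -0.065 without uninjured replicate 2. Libraries did not overlap in 11 lower (34.4%, against 24.3% of all genes) and 5 higher (15.6%, against 27.7%). An unadjusted p under 0.05 was found in 6 lower and 2 higher. stab1, a scavenger receptor that sinusoidal endothelium also carries and that is counted in both lists, stood at 526 and 415 CPM in ablated marrow, against 279.6 and 246 CPM in uninjured marrow (0.84, SE 0.16). The lysosomal protease genes lgmn (0.40, SE 0.11) and ctssb.1 (-0.48, SE 0.13) differed in direction, and the galectin gene lgals9l1 was lower (-0.50, SE 0.12). The defining markers csf1ra (0.27, SE 0.16) and mfap4 (-0.45, SE 0.30) lay within 2 standard errors of 0.

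Lymphocyte genes lay lower. Of 14 B lymphocyte genes 1 was above 0 (median -0.26, or -0.35 to -0.27 without single libraries). Of 26 T and NK lymphocyte genes 5 were above 0 (median -0.42, or -0.395 to -0.29 without single libraries). An unadjusted p under 0.05 was found in 4 of the B and 5 of the T and NK genes, all lower, and DESeq2 called 0 of either. The recombinase gene rag1, which rearranges antigen receptors in lymphoid precursors, stood at 8.85 and 10.01 CPM in ablated marrow, against 12.6 and 16.2 CPM in uninjured marrow (-0.61, SE 0.18). Its partner rag2 stood at 8.24 and 9.02 CPM in ablated marrow, against 11.11 and 13.6 CPM in uninjured marrow (-0.51, SE 0.17). The pair was lower in both ablated libraries. lck, the kinase at the T cell receptor, stood at 3.24 and 3.35 CPM in ablated marrow, against 6.23 and 5.36 CPM in uninjured marrow (-0.81, SE 0.21). The transcription factors tbx21 (-0.74) and runx3 (-0.41), the adaptor sla2 (-0.64), the kinase syk (-0.26) and the entry zgc:171713 (-0.48) were lower without overlap. The B cell factor pax5 (-0.52, SE 0.29), the kinase zap70 (-0.51, SE 0.30) and the coreceptors cd4 (-0.60, SE 0.44) and cd8a (-0.53, SE 0.46) had wider errors. Like lck, tbx21 and sla2, they were measured at under 7 CPM in every library.

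Interferon-response genes stood lower after ablation in 34 of 37, with a median of -0.50. Libraries did not overlap in 27, all lower (73.0%, against 24.3% of all genes). An unadjusted p under 0.05 was found in 17, all lower, against 7.34% of all genes, and DESeq2 called 9 lower, against 1.73%. Besides mxc and isg15, the antiviral gene rsad2 stood at 2.93 and 4.11 CPM in ablated marrow, against 9.34 and 12.9 CPM in uninjured marrow (-1.65, SE 0.27). stat1a, the transcription factor of the interferon pathway, stood at 98.6 and 97.2 CPM in ablated marrow, against 127 and 144 CPM in uninjured marrow (-0.47, SE 0.11). The fold change of the factor was smaller in size than those of the 3 effectors. A second Mx gene, mxb (-1.99, SE 0.41), was measured at under 3 CPM, and reads of such related copies may be shared, since no source used here says how multi-mapping reads were counted.

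Antigen presentation went the same way in 16 of 17 genes, with a median of -0.36, no overlap in 15 lower and DESeq2 calling 4. b2m, the light chain of class I molecules, stood at 762 and 769 CPM in ablated marrow, against 1046 and 1154 CPM in uninjured marrow (-0.52, SE 0.11). The class II invariant chain cd74a stood at 743 and 797 CPM in ablated marrow, against 984 and 1096 CPM in uninjured marrow (-0.43, SE 0.12). Class I genes mhc1uka (-0.55) and mhc1zba (-0.42) and the ABC transporter gene abcb3l1 (-0.75) were lower too. The summed level of the list was 3951 and 4123 CPM in ablated marrow, against 5112 and 5690.3 CPM in uninjured marrow, and leaving out single libraries kept its median between -0.43 and -0.33.

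Proteasome subunits, which cut proteins to peptides, stood higher in all but 2 members. Of 39 subunits 37 lay above 0 with a median of 0.47, in a range from -0.38 to 0.67, with 36 higher without overlap and 33 higher at an unadjusted p under 0.05. The lowest, psmd6, named after its values were seen, was lower without overlap and at an unadjusted p under 0.05 (-0.38, SE 0.12). psmb7 of the catalytic core stood at 77.0 and 78.1 CPM in ablated marrow, against 50.9 and 46.8 CPM in uninjured marrow (0.67, SE 0.10). The cap subunits psmc3 (0.58), psmd3 (0.54) and psmd4a (0.58) differed by similar amounts. Between libraries of a group the median of the list was -0.03 for the ablated and -0.01 for the uninjured pair. Ribosomal proteins of the cytosol, by contrast, had a median of 0.046, with 3 of 79 higher and 0 lower without overlap and none of them at an unadjusted p under 0.05. The libraries of a group differed by more than that in this list (-0.15 ablated, -0.19 uninjured), and the median was 0.12 and -0.029 without ablated replicates 1 and 2, and -0.042 and 0.14 without uninjured replicates 1 and 2.

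**Figure D4:**
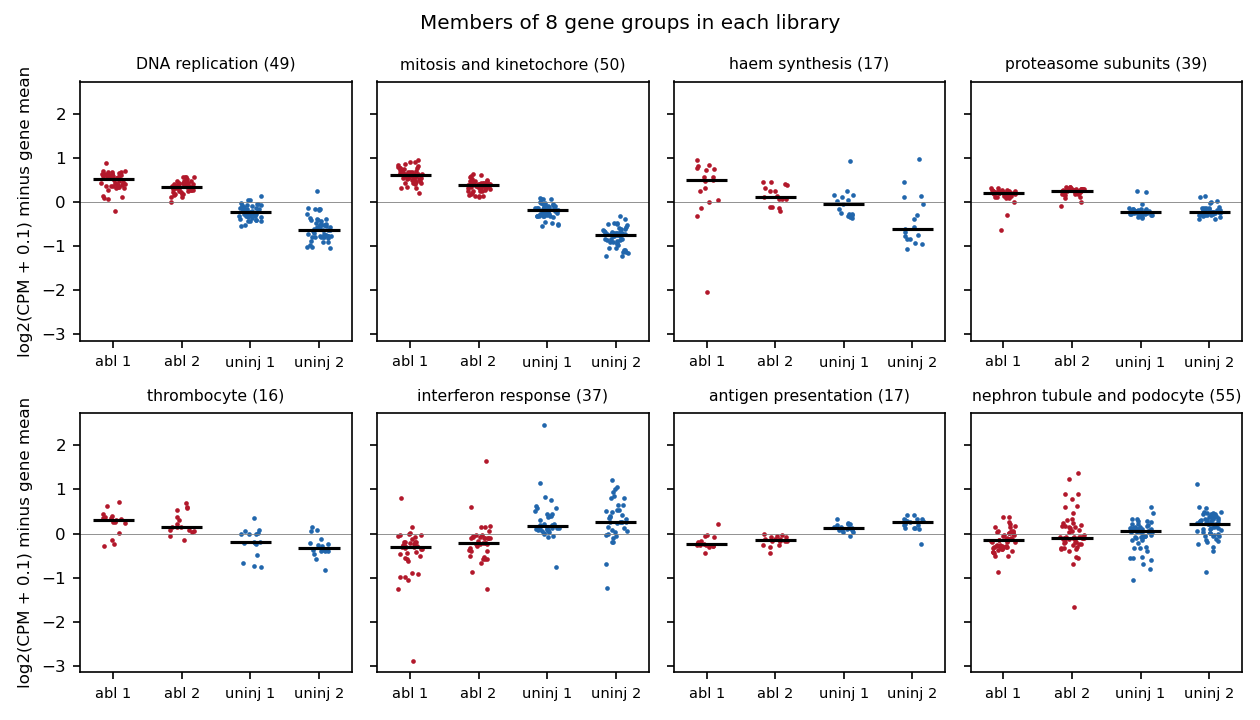
Each point is 1 tested gene of the list named above a panel, as log2(CPM + 0.1) minus the gene's mean over the 4 libraries, with ablated libraries in red, uninjured libraries in blue and black bars for library medians. The library medians of replication, mitosis and proteasome genes lie above 0 in both ablated libraries and below it in both uninjured ones, those of interferon and antigen presentation genes lie the other way, and nephron genes spread widely in ablated replicate 2.

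Genes of inflammatory signalling stood higher in 23 of 37, with a median of 0.27. socs3b, the feedback inhibitor that cytokines of the interleukin 6 family induce through STAT3, stood at 148 and 107 CPM in ablated marrow, against 44.1 and 42.0 CPM in uninjured marrow (1.56, SE 0.18). The receptor chain shared by that family, il6st, stood at 84.0 and 72.5 CPM in ablated marrow, against 53.1 and 51.6 CPM in uninjured marrow (0.58, SE 0.12). junbb, an AP-1 subunit, was 1.03 higher (SE 0.19). The chemokine gene cxcl8b.3 stood at 13.2 and 6.56 CPM in ablated marrow, against 0.966 and 1.19 CPM in uninjured marrow (3.18, SE 0.43), and as one of several tandem copies it may share reads with them. The cytokine gene il1b stood at 2.32 and 2.50 CPM in ablated marrow, against 5.26 and 2.27 CPM in uninjured marrow (-0.64, SE 0.44). The groups overlapped in il1b, and without single libraries its value ran from -1.12 to 0.088. cebpd, the C/EBP factor that the study deleted in another experiment, stood at 147 and 184 CPM in ablated marrow, against 229.8 and 109 CPM in uninjured marrow (-0.033, SE 0.36). Its 2 uninjured libraries lay on either side of the ablated ones, and without single libraries its value ran from -0.47 to 0.60, the lowest without uninjured replicate 2 and the highest without uninjured replicate 1.

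The sinusoidal scavenger receptors stab2 and stab1 and a pair of claudins of the vessel wall stood higher, while the endothelial list as a whole was divided. Of 38 genes 21 lay above 0 with a median of 0.042, which was 0.0021 and 0.073 without ablated replicates 1 and 2, and 0.11 without uninjured replicate 2. Beside stab2 and stab1, the tight junction gene cldn5b stood at 41.5 and 38.6 CPM in ablated marrow, against 8.96 and 13.4 CPM in uninjured marrow (1.84, SE 0.21). Its paralogue cldn5a stood at 33.3 and 29.4 CPM in ablated marrow, against 12.99 and 18.3 CPM in uninjured marrow (1.002, SE 0.20). Both claudins were higher in both ablated libraries. The VEGF receptor gene kdrl (-0.066, SE 0.12) and the cadherin gene cdh5 (0.15, SE 0.13), which mark endothelium in general, had errors larger than or close to their differences.

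Among stromal and matrix genes 20 of 31 lay above 0 with a median of 0.22, which was 0.058 without ablated replicate 1. At an unadjusted p under 0.05 were 12 higher and 0 lower. The fibronectin gene fn1a stood at 215 and 206 CPM in ablated marrow, against 104 and 114 CPM in uninjured marrow (0.95, SE 0.11). tagln, an actin-binding protein of smooth muscle, stood at 90.05 and 111 CPM in ablated marrow, against 33.0 and 47.5 CPM in uninjured marrow (1.32, SE 0.21). The mesenchymal receptor gene pdgfra stood at 50.9 and 37.9 CPM in ablated marrow, against 19.3 and 25.0 CPM in uninjured marrow (1.002, SE 0.21). All 3 were higher in both ablated libraries, as was the fibrillin gene fbn2b (1.34, SE 0.22). The fibrillar collagen genes col1a1a (-0.072, SE 0.16) and col1a2 (0.049, SE 0.20) overlapped between groups.

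Nephron genes, which report the renal tissue in the sample, lay lower in 37 of 55 with a median of -0.28 (-0.18 without uninjured replicate 2), 21 lower and 4 higher at an unadjusted p under 0.05. The sum of the list was 29857 and 34152 CPM in ablated marrow, against 36695 and 40047 CPM in uninjured marrow. The part of this renal share in the marrow results was not tested. The peptide transporter gene slc15a2 stood at 116 and 107 CPM in ablated marrow, against 177 and 182 CPM in uninjured marrow (-0.69, SE 0.10). hnf4a, a transcription factor of the proximal tubule, stood at 52.9 and 53.4 CPM in ablated marrow, against 81.9 and 88.1 CPM in uninjured marrow (-0.68, SE 0.10). Other tubule markers were lower by less. They were the phosphate transporter slc20a1a (-0.34), the sodium chloride cotransporter slc12a3 (-0.41) of the distal tubule and the cadherin cdh17 (-0.26). The podocyte gene nphs1, for a protein of the slit diaphragm, overlapped between groups (0.11, SE 0.19). Ciliated cell genes had 6 of 26 above 0 (median -0.17, or -0.11 without uninjured replicate 1) and interrenal and chromaffin genes 4 of 16 (median -0.17), with 1 and 0 genes at an unadjusted p under 0.05. The interrenal and chromaffin median was -0.0066 and -0.38 without ablated replicates 1 and 2, and -0.10 and -0.43 without uninjured replicates 1 and 2.

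Plasma proteins that the liver makes were divided as a list, and several stood higher, unevenly between libraries. Of 41 such genes 23 lay above 0, with a median of 0.28, which was -0.30 without ablated replicate 2 and 0.45 without uninjured replicate 2. Libraries did not overlap in 11 higher (26.8%, against 27.7% of all genes) and 8 lower (19.5%, against 24.3%). An unadjusted p under 0.05 was found in 8 higher and 4 lower, and the lowest fold change of the list was -1.46. The complement gene c6 stood at 616 and 543 CPM in ablated marrow, against 207 and 249 CPM in uninjured marrow (1.35, SE 0.14), even within groups. The transferrin gene tfa stood at 13.6 and 82.1 CPM in ablated marrow, against 6.49 and 12.2 CPM in uninjured marrow (2.36, SE 0.86), and the apolipoprotein gene apoa2 overlapped (-0.066, SE 0.28). In tfa, as in agt, ablated replicate 2 was far above the other 3 libraries. The defining hepatocyte genes ahsg2 and uox were highest in that library too. ahsg2, listed as si:ch73-252g14.4, stood at 0.0610 and 3.16 CPM in ablated marrow, against 0.0537 and 0.108 CPM in uninjured marrow. The urate oxidase gene uox stood at 0 and 1.46 CPM in ablated marrow, against 0.161 and 0.487 CPM in uninjured marrow. hamp, the iron hormone hepcidin, stood at 2.26 and 2.22 CPM in ablated marrow, against 0.429 and 0.162 CPM in uninjured marrow (2.89, SE 0.50). The part of liver tissue in these values was not tested.

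Enzymes listed for hepatocytes, many of which the proximal tubule also makes, lay lower in 25 of 29 (median -0.36). The P450 gene cyp2ad2 (-0.98) and the sulfotransferase gene sult2st1 (-0.45) were lower, fah overlapped (-0.049, SE 0.10), and tat was higher (1.89, SE 0.31). Striated muscle genes, markers of another tissue, had 5 of 31 above 0 and a median of -0.76 (-1.34 and -0.39 without ablated replicates 1 and 2, and -0.39 and -1.15 without uninjured replicates 1 and 2), against medians of 1.07 and 0.66 between the libraries of the ablated and of the uninjured group. The creatine kinase gene ckma (-0.99, SE 0.42) and myom1a (-0.59, SE 0.19) were lower, and acta1a (1.19) and tpm1 (0.35) were higher. mylpfa (-1.08, SE 0.60) and acta1b (-0.33, SE 0.54) overlapped between groups. Exocrine pancreas genes had a median of -0.70 over 13 genes, which was 0.018 without ablated replicate 1 and -2.05 without ablated replicate 2, and -0.16 without uninjured replicate 2.

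Named chaperones of the endoplasmic reticulum stood higher in a list of 40 chaperone genes, of which 28 lay above 0 with a median of 0.32. The calcium-binding chaperone gene calr stood at 272 and 285 CPM in ablated marrow, against 184 and 149 CPM in uninjured marrow (0.74, SE 0.14). hsp90b1 (0.84), dnajb11 (0.69) and hspa5 (0.73, SE 0.31) of the same compartment and the cytosolic hspa4b (0.47) were higher as well, while the heat-inducible hsp70l was lower (-0.77, SE 0.21). In polyamine metabolism the list as a whole had a median of 0.03 (0.012 to 0.089 without single libraries), with 2 genes higher and 3 lower of 19 at an unadjusted p under 0.05. odc1, the first enzyme of polyamine synthesis, stood at 469 and 567 CPM in ablated marrow, against 264 and 269 CPM in uninjured marrow (0.96, SE 0.13), and eif5a2, whose product a polyamine modifies, was 0.52 higher (SE 0.10). The acetyltransferases sat1a.1, described above, and sat1b (-0.70, SE 0.13) were lower.

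Glucocorticoid-responsive genes lay below 0 in 21 of 26 (median -0.27, or -0.15 and -0.48 without ablated replicates 1 and 2). Only 6 were lower without overlap (23.1%, against 24.3% of all genes), and 2 were higher without overlap. An unadjusted p under 0.05 was found in 4 lower and 2 higher, and the highest fold change of the list was 1.22. The cochaperone fkbp5, a common reporter of the hormone, stood at 497 and 1359 CPM in ablated marrow, against 1569 and 1591 CPM in uninjured marrow (-0.77, SE 0.45), so 1 ablated library set its difference. hsd11b2, which inactivates cortisol, stood at 449.7 and 715 CPM in ablated marrow, against 1010.4 and 1183 CPM in uninjured marrow (-0.91, SE 0.24). tob1a (-0.73) and the amino acid transporter slc6a19b (-0.53) were lower and tsc22d3 overlapped (-0.24, SE 0.19). Circadian clock genes lay below 0 in 33 of 41 (median -0.27, or -0.28 to -0.20 without single libraries). bhlhe41 (-0.97), per1b (-0.42) and npas2 (-0.84) were lower, and per2 was lower by less than 2 standard errors (-0.25, SE 0.14). Without single libraries bhlhe41 ran from -1.27 to -0.59 and npas2 from -1.15 to -0.43. The defining genes arntl1a (0.018, SE 0.14) and nr1d1 (-0.37, SE 0.35) overlapped between groups. nr1d1 stood at 79.8 and 97.3 CPM in ablated marrow, against 155 and 74.0 CPM in uninjured marrow. The repressor nfil3 stood at 18.9 and 28.8 CPM in ablated marrow, against 7.89 and 8.11 CPM in uninjured marrow (1.58, SE 0.23). The hour at which tissue was taken is not given in the labels.

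Of the 12 genes of the aryl hydrocarbon receptor pathway 3 lay above 0 (median -0.30, or -0.064 without uninjured replicate 2). Against cyp1c2, which was higher, the target and repressor tiparp (-0.76, SE 0.16) and the target nqo1 (-0.55, SE 0.13) were lower, and the classical target cyp1a (-0.27, SE 0.14) and the receptor ahr2 (-0.073, SE 0.12) lay within 2 standard errors of 0. Iron, copper and zinc genes had a median of 0.0029 over 36, or -0.013 with RLE size factors and 0.015 to 0.081 without single libraries, with cp and tfr1a higher, mt2 lower and the iron exporter slc40a1 lower (-0.36, SE 0.11). Sterol synthesis had 9 of 26 above 0 (median -0.11, or -0.034 without ablated replicate 1 and -0.035 without uninjured replicate 2). Its fold changes ran from -1.03 to 0.77. Libraries did not overlap in 7 lower (26.9%, against 24.3% of all genes) and 5 higher (19.2%, against 27.7%). At an unadjusted p under 0.05 were 3 lower, among them msmo1 (-0.65), and 2 higher, among them acat2 (0.77). Glycolysis had 7 of 29 above 0 (median -0.13, or 0.032 and -0.35 without ablated replicates 1 and 2 and -0.061 without uninjured replicate 2). gapdh stood at 879 and 867 CPM in ablated marrow, against 1307 and 1308 CPM in uninjured marrow (-0.58, SE 0.10), and pklr was lower too (-0.57, SE 0.11). Of the defining glycolysis genes, hk1 was higher without overlap (0.18, SE 0.12), and pkma (-0.075, SE 0.16) and ldha (-0.17, SE 0.33) overlapped between groups. The respiratory chain had 52 of 82 above 0 (median 0.029, or 0.10 and -0.039 without ablated replicates 1 and 2 and 0.047 without uninjured replicate 2), and within it isoforms of cytochrome oxidase went apart, cox6a1 higher (0.70) and the isoforms cox6a2 (-0.49) and cox7a1 (-0.53), known from muscle in mammals, lower.

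The genes that differed most between the 2 libraries of a group show where a difference between groups cannot be read from these data. The keratin gene krt5 stood at 441 and 64.3 CPM in ablated marrow, against 349 and 842 CPM in uninjured marrow. The nitric oxide synthase gene nos2a stood at 55.9 and 8.50 CPM in ablated marrow, against 34.3 and 86.4 CPM in uninjured marrow. Both were low in ablated replicate 2 alone. In the same library lpin1, an enzyme and regulator of lipid synthesis, and the apolipoprotein gene apoa1b stood high: lpin1 at 15.6 and 102 CPM in ablated marrow, against 25.0 and 19.5 CPM in uninjured marrow, and apoa1b at 12.3 and 63.3 CPM in ablated marrow, against 15.8 and 20.7 CPM in uninjured marrow. In the uninjured group the widest gaps, besides stc1l, were in egln3, a prolyl hydroxylase that hypoxia induces, at 9.28 and 38.2 CPM in ablated marrow, against 11.4 and 139.6 CPM in uninjured marrow, and in angptl4 at 22.04 and 37.7 CPM in ablated marrow, against 13.6 and 79.0 CPM in uninjured marrow. The collagen prolyl hydroxylase p4ha1b and the zinc finger gene zbtb16a went the same way, at 6.41 and 18.3 CPM and 17.8 and 66.1 CPM in ablated marrow, against 9.34 and 46.6 CPM and 28.4 and 131 CPM in uninjured marrow. All 4 were highest in uninjured replicate 2 and next highest in ablated replicate 2.

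**Figure D5:**
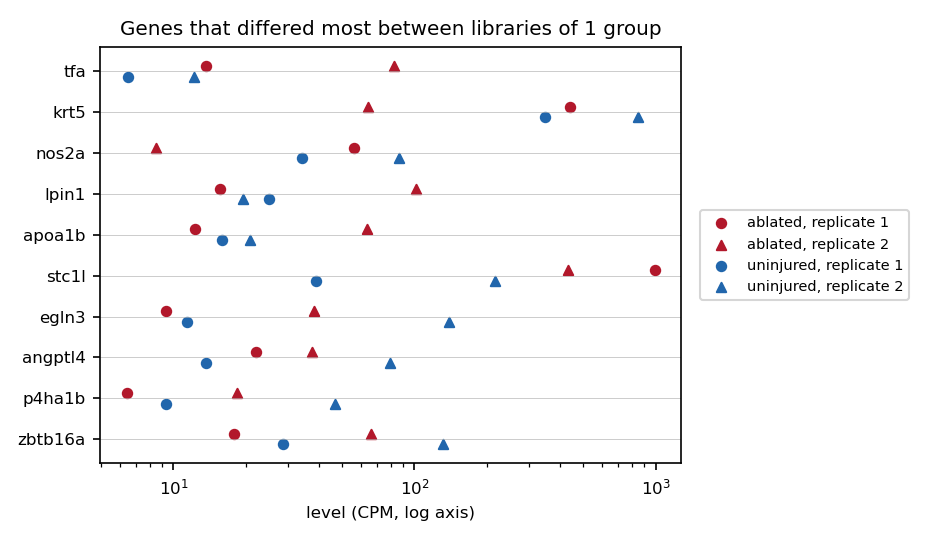
Level in CPM on a log axis of the 10 genes with the widest gap between the 2 libraries of the ablated group (upper 5) or of the uninjured group (lower 5), with ablated libraries in red above uninjured libraries in blue and replicates as circles and triangles. Points of the 2 colours are interleaved except in tfa and stc1l, and in the lowest 4 genes both replicate 2 libraries lie above both replicate 1 libraries.

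Whether the marrow differed from the brain in its response was tested as an interaction over 8 libraries, the 4 described here and 4 brain libraries of the same design. Of 13077 genes edgeR called 29 with a higher response in marrow (0.222%) and 5 with a lower one (0.0382%). cp had a log2 response of 1.89 in marrow and -0.054 in brain, a difference of 1.94. The endothelial gene esm1 differed by 2.78, with 2.57 in marrow and -0.22 in brain. The neurotrophin gene bdnf, at 1.89 and 2.08 CPM in ablated marrow, against 0.429 and 0.433 CPM in uninjured marrow, differed by 2.35. rgs7bpa (1.71), sae1 (1.46) and tmem35 (1.46) completed the 6 genes with the smallest p, each at an edgeR interaction adjusted p of 0.0245. In fits of a single tissue, each of the 6 had an edgeR adjusted p of 0.717 to 0.929 in brain and of 0.0740 to 0.0949 in marrow. The interaction fit estimates the spread of each gene from both tissues together. In the single-tissue fits the SE was smaller in brain, at 0.057 against 0.15 in marrow for cp and 0.11 against 0.26 for esm1. cebpd had a response of -0.033 in marrow and 1.05 in brain, a difference of -1.09 (edgeR interaction adjusted p = 0.293). Leaving out single libraries of the marrow moved the counts to between 24 and 198 higher and between 14 and 115 lower, the most without uninjured replicate 1.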

How the data were processed

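The authors deposited raw counts of RNA-seq reads from whole kidney marrow, 1 value for each of 14781 gene symbols in each library, followed by 5 summary lines. Reads were handled, per the submitters' processing notes, with TopHat2 2.1.1, HTSeq 1.6.1 and 2 releases of Trim Galore (0.4.1 and 0.6.4), on the build danRer10. No source used here gives the annotation, the strand setting or the treatment of multi-mapping reads, so overlapping, antisense and duplicated genes are uncertain. The summary lines were left out. Depth was 16045360 to 20469655 gene reads per library.

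The 2 ablated libraries were compared with the 2 uninjured ones in R 4.3.3 with edgeR 4.0.16 (filterByExpr, TMM scaling, glmQLFit and glmQLFTest, no replicate block) and Benjamini-Hochberg adjustment over all 12160 genes tested, at a threshold of 0.05. The SE was derived from the F statistic. The difference between marrow and brain was fitted as an interaction with 4 brain libraries. Scripts were tested on simulated data. The alternatives were RLE size factors, a filter at a mean count of 50 or none at all, DESeq2 1.42.0, limma 3.58.1 (voom), each library left out in turn, a block for the replicate number and a fit with the brain libraries.

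Genes are named by 1 rule. It takes cebpd, and the 12 genes per direction with the smallest p among those with at least 5 CPM in the higher group and no overlap between groups. It adds, for each direction, the 8 largest fold changes among genes at an unadjusted p under 0.05, with at least 10 CPM and no overlap. From each list it takes up to 4 members with the smallest p and at least 2 CPM, and its defining members. It also takes the 5 genes per group with the widest gap between its libraries, at a mean of at least 20 CPM, and the 6 with the smallest interaction p. Clone names were passed over except in lists. Some genes that the rule names are not reported here. The lists and the samples were chosen with earlier results of these data known. Lists are described by counts and medians and carry no test. List members were matched by symbol, 21 of them through a synonym in RefSeq (GRCz12tu). Coordinates and sequences were not used here.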

Additional observations from a re-analysis of the deposited data

Results flagged for a closer look

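The response to ablation differed between kidney marrow and brain by the test of the difference itself in 29 genes with a higher response in marrow and 5 with a lower one (edgeR interaction over 8 libraries, adjusted p under 0.05 among 13077 genes). The 6 genes with the smallest p were all higher in marrow. The log2 response in marrow minus that in brain was 1.94 for cp, 1.46 for tmem35, 1.71 for rgs7bpa, 1.46 for sae1, 2.35 for bdnf and 2.78 for esm1. Each had an edgeR interaction adjusted p of 0.0245, and an edgeR adjusted p of 0.0740 to 0.0949 in the marrow libraries alone. The interaction fit takes its spread from both tissues together. In marrow both ablated libraries of all 6 genes lay above both uninjured ones, which a choice by p from these same libraries favours. In brain their fold changes ran from -0.22 for esm1 to 0.060 for rgs7bpa. bdnf rested on few reads in marrow, 31 and 44 in the ablated libraries and 8 and 8 in the uninjured ones. Reads were also limited for tmem35 (81 and 106 ablated, 35 and 37 uninjured) and rgs7bpa (116 and 165 ablated, 37 and 44 uninjured). Levels of bdnf, tmem35 and rgs7bpa ran from 0.429 to 7.79 CPM in marrow, against 77.0 to 121 CPM in brain. What moves these genes in marrow was not tested.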

How the results depend on the processing

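With 0 genes called by edgeR, counts of calls grew under some other fits. They stayed at 0 with RLE size factors, without a low-count filter, at a mean count of at least 50 and with limma-voom. Higher and lower calls numbered 429 and 178 by DESeq2, 433 and 165 with a replicate block, and 912 and 440 in a fit with the brain libraries. DESeq2 shared 460 of its 607 calls with the 598 of the block and 573 with the 1352 of the brain fit. Genes at an unadjusted p under 0.05 were 1072 higher and 734 lower by DESeq2, 2039 and 1551 with the block, and 2040 and 1585 with the brain libraries. Leaving out 1 library at a time gave 0 to 1 higher calls, 0 lower calls, 842 to 1386 higher and 563 to 942 lower genes at an unadjusted p under 0.05. The single call was stab2 without ablated replicate 2 (3.42, edgeR adjusted p = 0.0331). The tissue difference counted 160 and 104 genes by DESeq2 and 196 and 61 with the block, and 24 to 198 higher and 14 to 115 lower without single libraries. In the labels the replicates of the 2 groups share only a number. The correlation of deviations of samples with the same number was 0.0284 over all genes tested, which does not describe single lists. Replicate 1 over replicate 2 had medians of 0.36 (ablated) and 0.50 (uninjured) for haem genes, and -0.15 and -0.19 for ribosomal proteins. Signs were opposite for glucocorticoid-responsive genes (-0.52 and 0.043) and for interrenal and chromaffin genes (-0.36 and 0.35). A shared effect of the replicate number was not tested, and the block is given only as an alternative.

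The counts here cover 195 of the tested genes named, without hk1, pkma, ldha, arntl1a, nr1d1 and the genes named only in families below. Of these 195, edgeR passed 0 at the adjusted threshold, DESeq2 109, the block 105 and the brain fit 116. RLE size factors and testing without a low-count filter turned none of them, and a mean count of at least 50 turned none of the 187 that it kept. cebpd turned to 0.055 with limma-voom and 0.053 with the block. The iron, copper and zinc median turned to -0.013 with RLE size factors, -0.010 at a mean count of at least 50, -0.013 by DESeq2, -0.0026 with limma-voom and -0.0014 with the brain libraries. Signs also turned when 1 library was left out, and the lowest and highest values follow. Medians ran from -0.0090 to 0.014 for all genes, -0.019 to 0.24 for stem and progenitor genes, -0.30 to 0.45 for liver-type plasma proteins, -2.05 to 0.018 for exocrine pancreas, -0.35 to 0.032 for glycolysis, -0.042 to 0.14 for ribosomal proteins and -0.039 to 0.10 for the respiratory chain. Blood cell genes ran from -0.21 to 0.77 (hbaa1), -0.21 to 0.35 (alas2), -0.52 to 0.022 (mpx), -0.21 to 0.10 (lyz), -0.049 to 0.19 (npsn), -0.042 to 0.0015 (csf3r), -1.12 to 0.088 (il1b) and -0.47 to 0.60 (cebpd). Vessel and stromal genes ran from -0.20 to 0.060 (kdrl), -5.5e-05 to 0.29 (cdh5), -0.25 to 0.087 (col1a1a) and -0.24 to 0.30 (col1a2). Kidney, liver, muscle and receptor genes ran from -0.092 to 0.28 (nphs1), -0.52 to 0.28 (apoa2), -0.10 to 0.0014 (fah), -0.87 to 0.54 (acta1b) and -0.17 to 0.023 (ahr2). Genes chosen for their spread ran from -0.51 to 2.19 (lpin1), -0.57 to 1.79 (apoa1b), -3.02 to 1.07 (egln3), -1.40 to 1.13 (angptl4), -2.12 to 0.42 (p4ha1b) and -2.16 to 0.57 (zbtb16a). The cause was not tested. Depth limits the rarest genes named, as cd8a rested on 11 and 9 reads in the ablated libraries and 13 and 16 in the uninjured ones.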

Other observations

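Further protein families were looked at after their values were seen, and they are given as descriptions only, beside a median of -0.0088 over all genes tested. Of 21 tested Sm and LSm proteins, the core of the splicing particles, 17 lay above 0 with a median of 0.56. snrpg stood at 48.4 and 45.7 CPM in ablated marrow, against 22.8 and 20.02 CPM in uninjured marrow (1.14, SE 0.12), and snrpe at 41.0 and 43.1 CPM in ablated marrow, against 22.8 and 22.8 CPM in uninjured marrow (0.88, SE 0.11). All 14 aminoacyl-tRNA synthetases lay above 0 with a median of 0.46, among them hars (0.79, SE 0.10). All 15 nucleoporins lay above 0 with a median of 0.43, and 12 of 14 enzymes of purine synthesis with a median of 0.38. atic, the last enzyme of that pathway, stood at 33.6 and 30.7 CPM in ablated marrow, against 13.4 and 15.0 CPM in uninjured marrow (1.18, SE 0.13).

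Mitochondrial ribosomal proteins lay above 0 in 66 of 68 with a median of 0.28, whereas the cytosolic ones had a median of 0.046. The chaperonin subunits of the CCT ring were above 0 in 7 of 7 (median 0.21) and the COP9 signalosome in 6 of 6 (median 0.22). Annexins were divided, with 6 of 14 above 0 and a median of -0.076, and anxa2a stood at 229 and 253 CPM in ablated marrow, against 109 and 119 CPM in uninjured marrow (1.08, SE 0.11). Prolyl hydroxylase and other genes that hypoxia induces lay above 0 in 4 of 24 (median -0.37), and the libraries within a group differed in them by as much (medians of -0.36 in the ablated and -0.45 in the uninjured pair). At the adjusted threshold edgeR called 0 of the members of these families, as it called 0 of 12160 genes in all, against 2384 genes at an unadjusted p under 0.05 and 429 higher and 178 lower by DESeq2.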
